A study of Mus musculus with 6 samples.

Results

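The genes described here are 36 genes of cardiac excitation and calcium handling, taken by name as calcium and potassium channel, pacemaker, calcium store, connexin and Popeye genes. They were followed in RNA-seq libraries of mouse hearts at E9.5, when the looped heart tube already beats. All 36 had transcripts in the annotation, and 35 passed the filter for low counts and stood among the 16048 genes tested. The samples were 3 libraries from FlncgKO hearts and 3 from littermate control hearts, all labelled whole heart, C57BL/6 and polyA RNA. FlncgKO embryos lacked *Flnc*, the gene of the actin crosslinker filamin C, through a cross of *Flnc* fl/fl mice with *Sox2*Cre, which deletes in the whole embryo and not in cardiomyocytes alone. The labels give the controls as control littermates, with no statement on which floxed or Cre alleles they carried. The study's methods name embryonic hearts or isolated ventricles and do not say how many hearts made 1 library, so p-values measure the spread between these libraries.

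A heartbeat starts with pacemaker cells that depolarise by themselves through hyperpolarisation-activated and calcium channels. The action potential passes from cell to cell through connexin channels, L-type calcium channels let calcium in, and ryanodine receptors answer with release from the sarcoplasmic reticulum. The pump SERCA2 and the sodium-calcium exchanger then clear calcium from the cytosol, and potassium channels repolarise the membrane. In the embryonic heart tube the sinus venosus and atria beat fastest and drive the ventricle, before a specialised conduction system has formed.

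Levels between genes are given in TPM, which corrects for transcript length. Levels of 1 gene between libraries are given as CPM, or as TPM where that unit is named. CPM has no correction for length and is scaled with TMM, a factor for RNA composition, while TPM is not scaled with TMM. The edgeR log2 fold changes of the main test come from counts scaled with TMM. Where 3 values stand for a group, they are those of its replicates 1, 2 and 3 in this order. Libraries held 19208859 to 23123255 estimated counts. *Flnc*, the check of the labels, lay at 844, 623 and 746 CPM among the controls and at 127, 111 and 240 CPM in FlncgKO hearts, with a log2 fold change of -2.21 that passed the threshold with DESeq2 (adjusted p = 1.11e-06) and not with edgeR (adjusted p = 0.0656). The sum of the cardiomyocyte markers ranged over 25797 to 30020 CPM among control libraries and over 24040 to 27990 CPM among FlncgKO libraries. Its largest members went apart, as DESeq2 called *Myh6* lower (log2 fold change -0.43, adjusted p = 0.00236) and *Myh7* higher (log2 fold change 0.35, adjusted p = 0.0137) and edgeR called neither. Of the 4 skeletal muscle and somite markers, *Myod1* and *Myf5* had no count in any library. The sum of 4 Y-linked genes was 117 to 140 CPM in the controls, 80.7 CPM in FlncgKO replicate 1 and 3.88 and 4.28 CPM in FlncgKO replicates 2 and 3. This level moves with the groups, so the sexes of the embryos may be unevenly mixed between them. A fit with it as a covariate is given where it ends a call and for some other genes. Of the other marker lists, the leukocyte sum lay between 4.87 and 12.7 CPM among controls and between 21.97 and 32.1 CPM among FlncgKO libraries, with *Coro1a* and *Itgb2* called higher by edgeR (adjusted p = 0.0395 and 0.0411) and *Ptprc*, *Csf1r* and *Cd68* overlapping between the groups. The neural sum was lower, 8.38 to 12.5 CPM against 14.1 to 17.5 CPM. Of its genes *Tubb3* alone did not overlap (log2 fold change -0.96, DESeq2 adjusted p = 0.0470, edgeR adjusted p = 0.164), and *Elavl3*, *Elavl4*, *Stmn2* and *Sox2* overlapped. The sums of ventricular, endothelial, erythroid and epicardial markers overlapped between the groups. Within the endothelial list 5 of 6 genes did not overlap, beside 29.7% of all genes tested. DESeq2 called *Emcn*, *Pecam1* and *Cdh5* higher, the first also with edgeR (log2 fold change 1.24, adjusted p = 0.0353), and *Tek* and *Npr3* lower. Of all genes, DESeq2 called 6.42% higher and 2.38% lower.

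For 34 of the 35 genes tested no difference between control and FlncgKO hearts passed the edgeR test. *Cacna1d*, which encodes the pacemaker L-type channel Cav1.3, fell in FlncgKO hearts, to 60.1 ± 5.9 CPM (SD, n = 3) from 87.2 ± 0.4 CPM (SD, n = 3). It was the 1 gene of the 35 tested that passed an adjusted p of 0.05 with edgeR's quasi-likelihood test, in which 0.249% of all genes were called lower. None of the 35 was called higher, against 1.06% of all genes. Without adjustment, p was under 0.05 for 3 genes with a higher and 4 with a lower mean in FlncgKO hearts, as for 13.3% and 8.84% of all genes. DESeq2, the tool of the study, called *Cacna1d* and *Bves* lower and none higher, with 2.38% of all genes called lower and 6.42% called higher. The median log2 fold change, FlncgKO minus control, was -0.04 over the 35 genes (0.02 without FlncgKO replicate 3) and 0.01 over all genes tested, and the median size of the change, without its sign, was 0.14 and 0.15.

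The values of the groups did not overlap for 5 of the 35 genes, which is 14.3%, beside 29.7% of all genes tested. *Cacna1d*, *Cacnb2*, *Kcnh2* and *Bves* were the 4 with every FlncgKO library under every control library, and *Asph* was the 1 with every FlncgKO library above. For 20 of the 35 genes the 95% interval of the log2 fold change lay within 0.5 of 0 on either side, or 57.1%, as it did for 53.7% of all genes tested.

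**Figure D1:**
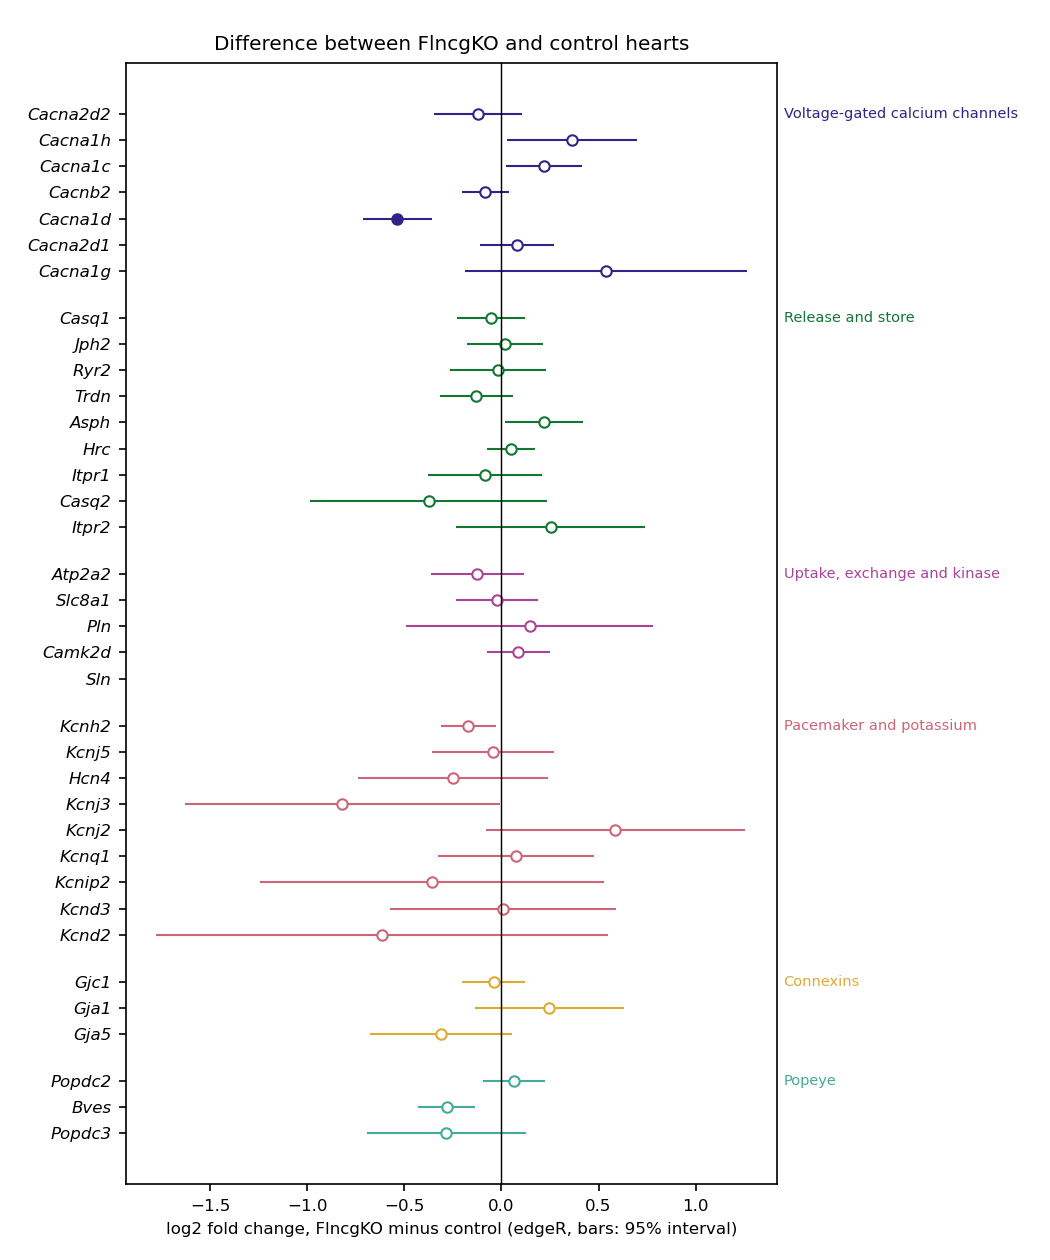
Log2 fold change of each gene, FlncgKO minus control, from edgeR with 3 libraries a group, ordered by functional group and by control level within it. Points are estimates, bars are 95% intervals and the filled point, *Cacna1d* at -0.54, is the 1 that passed an adjusted p of 0.05. *Sln* has no point because its counts were under the filter.

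The levels themselves spanned a wide range, from a control mean of 0.130 TPM for *Sln* upward. Across control hearts the highest mean was 1079 ± 36 TPM (SD, n = 3) for *Atp2a2*, which encodes SERCA2, above 99.2% of the genes tested. *Slc8a1*, the sodium-calcium exchanger NCX1, followed with 419 ± 26 TPM and the Popeye gene *Popdc2* with 283 ± 15 TPM. At the other end, *Sln*, *Kcnd2*, *Kcnd3*, *Kcnip2* and *Cacna1g* were the 5 genes with a control mean under 1 TPM. In all, 25 of the 36 genes had a control mean of at least 10 TPM.

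**Figure D2:**
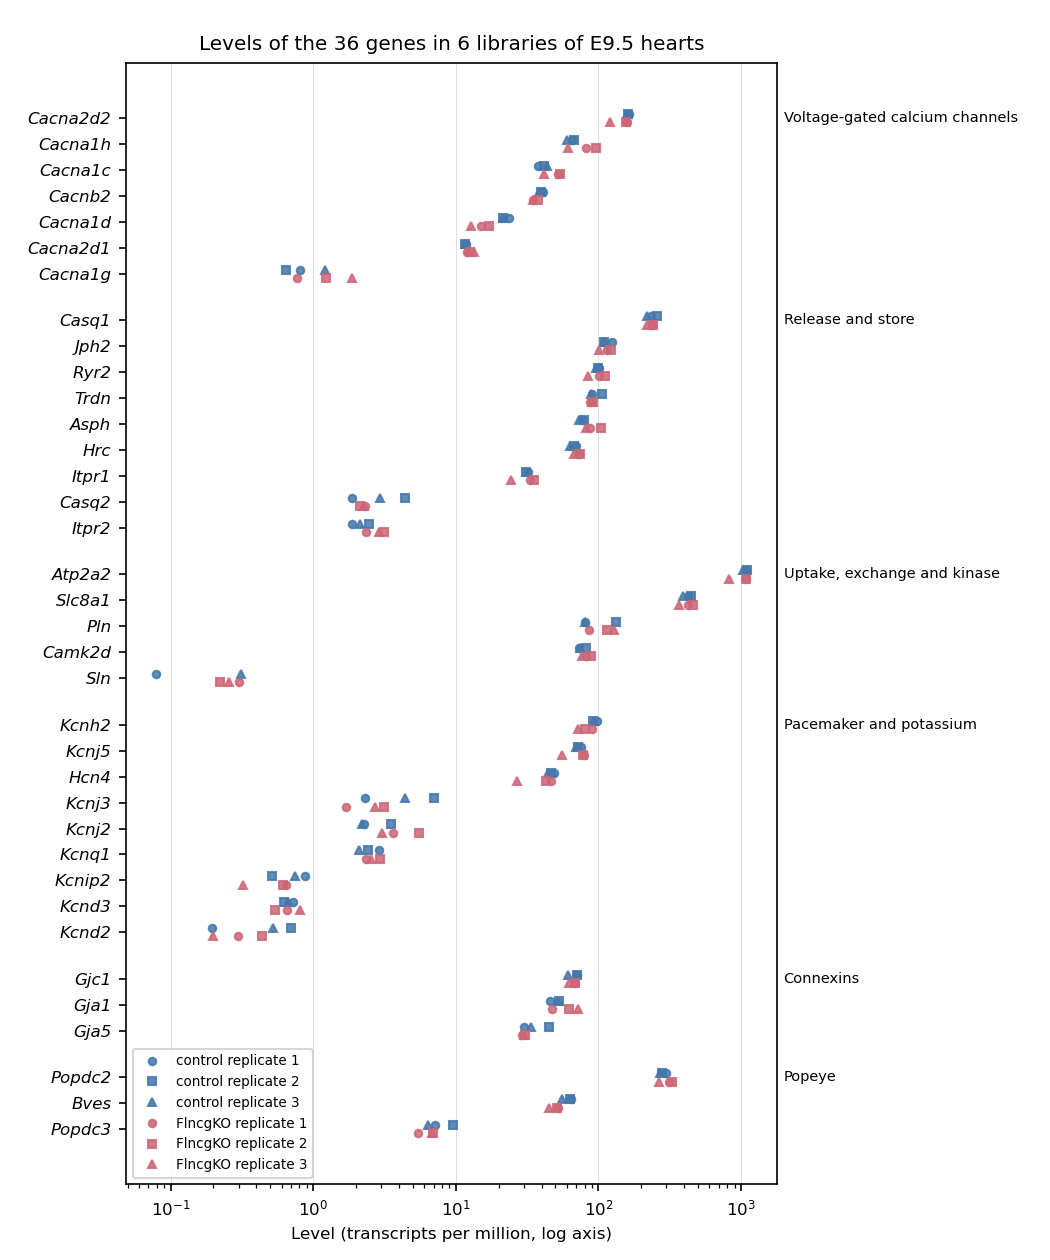
Level of each of the 36 genes in every library, in TPM on a log axis, with control libraries above and FlncgKO libraries below within each gene. *Atp2a2* stands highest with a control mean of 1079 TPM, *Sln*, *Kcnd2*, *Kcnd3* and *Kcnip2* stay under 1 TPM in all 6 libraries, and the *Sln* value of control replicate 2 is not drawn because it was 0.

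Among the voltage-gated calcium channels described here, the pore subunits of the L type are Cav1.2 (*Cacna1c*) and Cav1.3 (*Cacna1d*). Those of the T type, which open at more negative voltages, are Cav3.1 (*Cacna1g*) and Cav3.2 (*Cacna1h*). *Cacna1d* lies at chr14:30039939-30491455 on the minus strand (GRCm38). The control libraries had 87.5, 86.7 and 87.4 CPM of it and the FlncgKO libraries 64.4, 62.6 and 53.3 CPM. Every FlncgKO library was under every control library, with the lowest value in replicate 3. The log2 fold change was -0.54 (standard error 0.08, 95% interval -0.72 to -0.36, edgeR adjusted p = 0.0353), a level 31.0% under the control level, and DESeq2 gave an adjusted p of 7.22e-07. The edgeR call was lost without any 1 of control replicates 1, 2 and 3 or FlncgKO replicates 1 and 2 (adjusted p = 0.0563 to 0.197). Those fits called 0 to 15 of all genes lower, against 40 with all 6 libraries. Leaving out FlncgKO replicate 3 gave an edgeR adjusted p of 0.00445, in a fit that called 283 genes lower. The log2 fold change stayed between -0.59 and -0.46 in these 6 fits, and DESeq2 kept the call in each of them. With the level of the Y-linked genes as a covariate the log2 fold change was -0.42 and no longer passed (edgeR adjusted p = 0.378). That fit called 0 of all genes higher and 0 lower. Y-linked level and genotype largely go together in these libraries, and their parts in the fall of *Cacna1d* cannot be told apart. With offsets for transcript length the log2 fold change was -0.58 (edgeR adjusted p = 0.0535), in a fit that called 13 of all genes lower.

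The *Cacna1d* transcripts of over 40 exons start at 2 places, and a window before each is shown because these transcripts are grouped by place of start below. The upstream start is that of Cacna1d-202. The starts of the 5 downstream transcripts lie within chr14:30352991-30353486. The downstream window shown is that of Cacna1d-208, whose start is 137670 bases from the upstream start. The sequences are the 250 bases before the start at each place, from RefSeq on GRCm38.p6, written 5′ to 3′ on the minus strand, at chr14:30491157-30491406 for the upstream start and chr14:30353487-30353736 for the downstream start. Capitals mark CG dinucleotides, which read the same on both strands.
Cacna1d upstream start: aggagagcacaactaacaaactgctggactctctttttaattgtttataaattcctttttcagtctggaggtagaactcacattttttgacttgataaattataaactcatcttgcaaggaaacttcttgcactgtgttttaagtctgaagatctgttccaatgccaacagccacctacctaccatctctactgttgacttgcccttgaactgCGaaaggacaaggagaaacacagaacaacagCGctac
Cacna1d downstream start: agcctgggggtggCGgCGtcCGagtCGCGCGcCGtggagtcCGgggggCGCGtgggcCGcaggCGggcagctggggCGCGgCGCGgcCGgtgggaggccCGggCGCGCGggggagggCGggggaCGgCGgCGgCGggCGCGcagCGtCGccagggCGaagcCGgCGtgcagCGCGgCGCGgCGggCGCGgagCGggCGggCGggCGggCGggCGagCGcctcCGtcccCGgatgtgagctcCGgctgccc
The upstream window holds 2 CG dinucleotides at a G+C content of 39.6%, and 81.2% of the 32851 promoter windows of this length in the table hold at least as many. The downstream window holds 50 at a G+C content of 86.4%, as many as or more than 99.9% of windows. An annotated noncoding transcript, Cacna1d-205, begins further upstream and runs through the first window.

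The full-length transcript from the upstream start, Cacna1d-202 with 47 exons and 2166 codons, was estimated at 9.49, 8.29 and 8.91 TPM in the controls and at 7.29, 6.86 and 5.90 TPM in FlncgKO hearts. The 5 transcripts of over 40 exons from the downstream starts together had 1.29, 1.57 and 0.865 TPM in the controls and 0.476, 0.209 and 0.387 TPM in FlncgKO hearts. Neither class overlapped between the groups. The upstream start thus gave 84.1% to 91.2% of these long transcripts in control and 93.8% to 97.1% in FlncgKO libraries. Of the TPM of the whole gene, Cacna1d-202 took 38.5% to 41.4% in control and 40.2% to 48.6% in FlncgKO libraries, and these ranges overlapped. Transcripts annotated as retained introns took 11.98 ± 0.59 TPM (SD, n = 3) in control and 7.92 ± 1.85 TPM (SD, n = 3) in FlncgKO hearts, a large part of the gene total of 22.16 and 14.96 TPM. These are estimates by salmon among overlapping transcripts and were not tested.

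*Cacna1c*, the main L-type pore of the working myocardium, had a higher mean in FlncgKO hearts without passing the test. It had 193, 218 and 196 CPM in the controls and 238, 258 and 211 CPM in FlncgKO hearts, so that FlncgKO replicate 3 lay within the control range (log2 fold change 0.22, standard error 0.08, edgeR adjusted p = 0.186). *Cacna1h* had 252, 261 and 226 CPM in the controls and 318, 375 and 258 CPM in FlncgKO hearts, again with FlncgKO replicate 3 inside the control range (log2 fold change 0.36, standard error 0.14, edgeR adjusted p = 0.198, DESeq2 adjusted p = 0.0538). Without FlncgKO replicate 3, edgeR called both genes higher, at log2 fold changes of 0.29 for *Cacna1c* (adjusted p = 0.0452) and 0.49 for *Cacna1h* (adjusted p = 0.0191), in a fit that called 6.05% of all genes higher. Without FlncgKO replicate 2 they were 0.15 (edgeR adjusted p = 0.430) and 0.22 (edgeR adjusted p = 0.391). The ratio of *Cacna1d* to *Cacna1c* in TPM, which does not depend on scaling between libraries, was 0.625, 0.517 and 0.497 in the controls and 0.290, 0.318 and 0.310 in FlncgKO hearts. These groups did not overlap, and the exact two-sided permutation p was 0.1, the smallest that 3 against 3 allows, or 0.4 after adjustment over the 12 ratios compared.

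Of the T-type pore transcripts from *Cacna1g* and *Cacna1h*, nearly all came from *Cacna1h*, with 64.1 ± 3.3 TPM (SD, n = 3) in controls. *Cacna1g*, the lowest of the 7 calcium channel genes described here, had 0.808, 0.643 and 1.219 TPM in the controls and 0.768, 1.23 and 1.89 TPM in FlncgKO hearts. The groups overlapped, and the ratio of *Cacna1g* to *Cacna1h* stayed between 0.00942 and 0.0306 in all 6 libraries. The accessory subunits carry the pore to the membrane and tune its gating. Of these, *Cacna2d2* was the most abundant of the 7 genes, with 163, 162 and 158 TPM in the controls and 158, 155 and 121 TPM in FlncgKO hearts, FlncgKO replicate 3 being the lowest. *Cacna2d1* had 11.7 ± 0.1 TPM and *Cacnb2*, the beta subunit, 39.6 ± 1.5 TPM in controls (SD, n = 3). Neither passed the test, with log2 fold changes of 0.08 and -0.08, although the CPM of *Cacnb2* did not overlap between the groups.

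**Figure D3:**
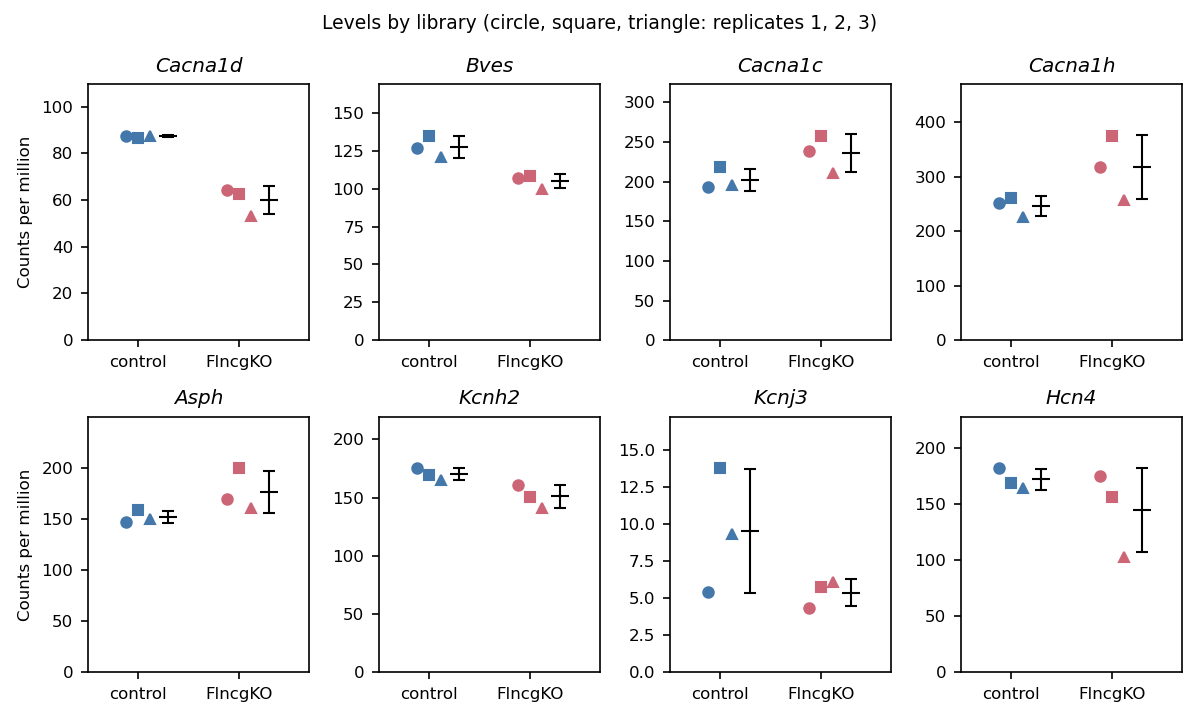
CPM in each library for *Cacna1d*, *Bves* and the 5 other genes with an unadjusted p under 0.05, and for *Hcn4*, which was added after its values were seen. Points are libraries, bars beside them are mean and SD of 3, and each axis starts at 0. *Cacna1d*, *Bves* and *Kcnh2* (lower in FlncgKO hearts) and *Asph* (higher) separate the groups, while FlncgKO replicate 3 lies within the control range for *Cacna1c* and *Cacna1h*.

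The release and store genes build the calcium release unit. *Ryr2* encodes the release channel, junctophilin (*Jph2*) ties the reticulum to the plasma membrane, calsequestrins (*Casq1*, *Casq2*) bind calcium in the lumen, and triadin (*Trdn*), junctin (from *Asph*) and the histidine-rich calcium-binding protein (*Hrc*) attach to them. None of the 9 genes passed the test. *Ryr2* had a control mean of 98.3 ± 2.2 TPM (SD, n = 3) and a log2 fold change of -0.02 (95% interval -0.27 to 0.23), and *Jph2* had 114 ± 9 TPM and 0.02 (95% interval -0.18 to 0.22).

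Of the calsequestrin transcripts nearly all came from *Casq1*, named the skeletal muscle form, and few from the cardiac *Casq2*. *Casq1* had 232, 257 and 219 TPM in the controls and 236, 242 and 217 TPM in FlncgKO hearts. *Casq2* ranged from 1.88 to 4.37 TPM in the controls and from 2.14 to 2.29 TPM in FlncgKO hearts. The ratio of *Casq1* to *Casq2* was thus 58.9 to 123 in controls and 95.04 to 113 in FlncgKO hearts, with overlapping groups. The skeletal muscle regulators *Myod1* and *Myf5* were at 0 and *Myog* at no more than 0.0521 CPM in the same libraries.

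*Asph* was the release gene with the largest difference relative to its error. It makes junctin, junctate and the enzyme aspartyl hydroxylase from shared exons, and it had 147, 158 and 150 CPM in the controls and 169, 200 and 160 CPM in FlncgKO hearts, without overlap (log2 fold change 0.22, standard error 0.09, edgeR adjusted p = 0.191). Without FlncgKO replicate 2 the log2 fold change was 0.12, and without FlncgKO replicate 3 it was 0.28 and DESeq2 called it (adjusted p = 0.0231). The transcript leading in controls, Asph-208 with 272 codons, took 26.5% ± 4.9 of the gene's TPM in controls and 19.3% ± 3.6 in FlncgKO hearts (SD, n = 3), where Asph-210 took 21.5% ± 3.3 (SD, n = 3). With *Cacnb2*, *Asph* was 1 of 2 genes, of the 32 listed genes with several transcripts, whose leading share did not overlap between the groups, where 11.2% of all such genes did not. Of the inositol trisphosphate receptors, which release calcium in response to receptor signalling, *Itpr1* had 31.4 ± 0.6 TPM in controls (SD, n = 3). *Itpr2*, the lowest of the group, had 1.88, 2.48 and 2.11 TPM in the controls and 2.35, 3.14 and 2.91 TPM in FlncgKO hearts. The ranges overlapped, and the log2 fold change was 0.25 with a 95% interval of -0.23 to 0.74.

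*Atp2a2* and *Slc8a1* were the most abundant of the 36 genes. *Atp2a2*, at chr5:122453513-122502225 (GRCm38), had 1091, 1108 and 1039 TPM in the controls and 1077, 1088 and 826 TPM in FlncgKO hearts. FlncgKO replicates 1 and 2 were within the control range and replicate 3 was under it. The log2 fold change from the CPM was -0.12 (95% interval -0.36 to 0.11). *Slc8a1* had a log2 fold change of -0.02 (95% interval -0.24 to 0.19), and its ratio to *Atp2a2* was 0.376 to 0.399 in controls and 0.394 to 0.445 in FlncgKO hearts. *Camk2d*, the cardiac kinase that phosphorylates phospholamban and the release channel, had 76.2 ± 4.3 TPM in controls (SD, n = 3) and a log2 fold change of 0.09 (95% interval -0.08 to 0.25).

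The transcripts of *Atp2a2* differ at the end of the coding frame, which makes the muscle pump SERCA2a and the general pump SERCA2b. Their coding ends are shown because this end identifies the isoform, as annotated by GENCODE (M21), 5′ to 3′, with the bases after their last shared base in capitals up to the stop codon.
Atp2a2-202: tacctggaacaacccgCAATACTGGAGTAA
Atp2a2-201: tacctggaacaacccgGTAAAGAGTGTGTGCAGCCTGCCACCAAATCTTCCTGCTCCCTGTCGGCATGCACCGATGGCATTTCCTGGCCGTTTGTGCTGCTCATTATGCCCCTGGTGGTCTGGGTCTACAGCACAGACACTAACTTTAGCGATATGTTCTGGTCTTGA
The frames share 2983 bases and then run on for 14 and 152 bases, to 998 and 1044 codons. They lie on the minus strand of chr5 (GRCm38), the short end in 2 exons between 122454291 and 122457318 and the long end at chr5:122457151-122457318. The short form, Atp2a2-202, took 75.5% to 78.1% of the gene's TPM in controls and 75.3% to 76.9% in FlncgKO hearts. The long form, Atp2a2-201, took 15.4% to 17.9% and 16.5% to 18.1%, and both ranges overlapped between the groups.

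SERCA2 is held back by small membrane proteins, phospholamban (*Pln*) and sarcolipin (*Sln*). Their whole coding frames are shown because 1 was present and the other close to absent, again from GENCODE M21 on GRCm38, at chr10:53343864-53344022 and chr9:53853473-53853568 on the plus strand, with the start and stop codons in capitals.
Pln-201: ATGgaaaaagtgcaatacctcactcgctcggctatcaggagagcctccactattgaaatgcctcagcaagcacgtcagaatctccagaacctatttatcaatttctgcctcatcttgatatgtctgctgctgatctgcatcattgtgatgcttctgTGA
Sln-201: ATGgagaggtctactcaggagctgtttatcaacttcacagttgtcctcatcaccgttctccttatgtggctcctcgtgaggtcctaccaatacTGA
*Pln* codes for 52 residues and had 97.9 ± 29.9 TPM in controls and 110 ± 21 TPM in FlncgKO hearts (SD, n = 3), which is 0.0737 to 0.120 of the *Atp2a2* level in controls and 0.0800 to 0.155 in FlncgKO hearts. *Sln* codes for 31 residues and had 1, 0 and 4 counts in the controls and 4, 3 and 3 counts in FlncgKO hearts. A count of 0 allows up to 3 counts, or 0.144 CPM in that library, for counting error only. *Sln*, a gene of the atria and skeletal muscle in the adult, was therefore at or near the floor in both groups at this depth. It was under the filter for low counts, and edgeR with no filter gave an adjusted p of 0.676.

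The pacemaker and potassium genes set the resting potential and repolarisation. *Hcn4*, the pacemaker channel of the sinus node, had 46.6 ± 2.3 TPM in controls and 38.8 ± 10.5 TPM in FlncgKO hearts (SD, n = 3). Its CPM ranged from 165 to 183 in controls and from 103 to 176 in FlncgKO hearts, with replicate 3 lowest. The log2 fold change was -0.25 (95% interval -0.74 to 0.24), -0.05 without FlncgKO replicate 3 and 0.08 with the Y-linked covariate. No direction can be given for it.

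*Kcnh2*, which encodes the rapid delayed rectifier channel ERG1, was the most abundant of this group. It had 97.3, 92.1 and 93.5 TPM in the controls and 89.5, 80.2 and 72.1 TPM in FlncgKO hearts. Every FlncgKO library was under every control library, but the log2 fold change of -0.17 (standard error 0.06) did not pass (edgeR adjusted p = 0.163, DESeq2 adjusted p = 0.114). The log2 fold change was -0.23 without FlncgKO replicate 1, where DESeq2 called the gene lower (adjusted p = 0.0229), and -0.13 without FlncgKO replicate 3. With the Y-linked covariate it was -0.06 (standard error 0.09, edgeR adjusted p = 0.916). ERG1 exists in a long form and a form with its own short start that lacks the N-terminal PAS domain. Their coding starts are shown because the forms are told apart there, from GENCODE M21, 5′ to 3′. For the long form the start codon is in capitals, and for the short form all bases before the shared frame are.
Kcnh2-201: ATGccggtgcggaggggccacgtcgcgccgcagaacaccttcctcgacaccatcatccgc
Kcnh2-202: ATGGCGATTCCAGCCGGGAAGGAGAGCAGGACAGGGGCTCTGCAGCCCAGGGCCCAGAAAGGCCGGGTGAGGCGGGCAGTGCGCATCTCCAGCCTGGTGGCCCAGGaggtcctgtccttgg
The first lies at chr5:24351224-24351283 and the other in 2 exons between chr5 positions 24326765 and 24329272, both on the minus strand (GRCm38). The long form of 1162 codons took 56.7% to 58.6% of the gene's TPM in controls and 57.7% to 63.3% in FlncgKO hearts, and the short form of 820 codons took 11.1% to 14.2% and 9.65% to 12.9%. Both ranges overlapped.

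The acetylcholine-activated potassium channel of atria and pacemaker cells is built from GIRK1 (*Kcnj3*) and GIRK4 (*Kcnj5*), and the latter was far more abundant. *Kcnj5* had 72.5 ± 3.0 TPM in controls (SD, n = 3) and a log2 fold change of -0.04 (95% interval -0.36 to 0.27). *Kcnj3* had 5.44, 13.8 and 9.32 CPM in the controls and 4.34, 5.74 and 6.10 CPM in FlncgKO hearts. The groups overlapped, because control replicate 1 lay among the FlncgKO libraries, and the log2 fold change of -0.82 (standard error 0.34) did not pass the test (edgeR adjusted p = 0.222). It was -0.46 without control replicate 2 and -1.10 without control replicate 1, where DESeq2 called it (adjusted p = 0.00927) and edgeR did not (adjusted p = 0.216). In TPM, *Kcnj5* was 10.3 to 32.5 times *Kcnj3* in controls and 20.5 to 46.8 times in FlncgKO hearts.

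The remaining potassium channel genes of this group were low. *Kcnj2*, the main inward rectifier of the ventricle, had 2.66 ± 0.73 TPM in controls and 4.04 ± 1.29 TPM in FlncgKO hearts (SD, n = 3), with a log2 fold change of 0.59 that did not pass (edgeR adjusted p = 0.279). *Kcnq1*, the slow delayed rectifier, had 2.48 ± 0.40 TPM in controls and a log2 fold change of 0.08. *Kcnd2*, 1 of 2 pores of the transient outward current, had 0.196, 0.699 and 0.525 TPM in the controls and 0.298, 0.437 and 0.200 TPM in FlncgKO hearts. The groups overlapped throughout, and *Kcnd3*, the other pore, and *Kcnip2*, their subunit, lay at 0.673 ± 0.047 and 0.715 ± 0.185 TPM in controls (SD, n = 3). For *Kcnd2* the 95% interval of the log2 fold change ran from -1.78 to 0.55, an interval that includes falls of over 2-fold.

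Connexins form the gap junction channels between cardiomyocytes, and connexin 43 (*Gja1*) leads in the working myocardium of the adult. In E9.5 hearts all 3 connexin genes had control means between 36.4 and 67.4 TPM. *Gjc1* (connexin 45) had 70.9, 70.3 and 61.0 TPM in the controls and 68.7, 68.9 and 62.1 TPM in FlncgKO hearts. *Gja5* (connexin 40, of atria and trabeculae), the lowest, had 30.1, 45.2 and 33.8 TPM in the controls and 29.0, 30.5 and 30.0 TPM in FlncgKO hearts, with a log2 fold change of -0.31 (edgeR adjusted p = 0.290). *Gja1* had 50.4 ± 4.1 TPM in controls and 60.6 ± 12.3 TPM in FlncgKO hearts (SD, n = 3), with a log2 fold change of 0.25 (edgeR adjusted p = 0.415). Neither passed, and in CPM their groups overlapped. The ratio of *Gja5* to *Gja1* did not: it was 0.661, 0.850 and 0.646 in the controls and 0.609, 0.492 and 0.416 in FlncgKO hearts, at the smallest exact permutation p of 0.1 (0.4 adjusted over the 12 ratios).

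The Popeye genes encode membrane proteins of the heart and muscle that bind cyclic AMP and act on pacemaking and conduction. *Bves* (Popeye 1), at chr10:45335772-45372479, and *Popdc3*, at chr10:45178098-45318452 (GRCm38), are neighbours on the plus strand. *Bves* had 127, 135 and 121 CPM in the controls and 107, 108 and 99.5 CPM in FlncgKO hearts. All FlncgKO libraries were lower, by 17.7% on average (log2 fold change -0.28, standard error 0.06, 95% interval -0.43 to -0.14). DESeq2 called it (adjusted p = 0.00296), also without any 1 library, and edgeR did not (adjusted p = 0.0725). With the Y-linked covariate the log2 fold change of *Bves* was -0.24 (standard error 0.11, edgeR adjusted p = 0.644), in a fit that called 0 of all genes. No DESeq2 fit used this covariate. *Popdc2*, the highest, had 300, 280 and 270 TPM in the controls and 311, 326 and 266 TPM in FlncgKO hearts, and *Popdc3*, the lowest, had 7.16, 9.56 and 6.39 TPM and 5.43, 6.98 and 6.79 TPM. Both overlapped between the groups, at log2 fold changes of 0.07 and -0.28, so that the neighbour of *Bves* had a like estimate with a wider 95% interval of -0.69 to 0.13. The ratio of *Bves* to *Popdc2* was 0.204 to 0.227 in controls and 0.156 to 0.170 in FlncgKO hearts, without overlap (exact permutation p = 0.1, adjusted 0.4).

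**Figure D4:**
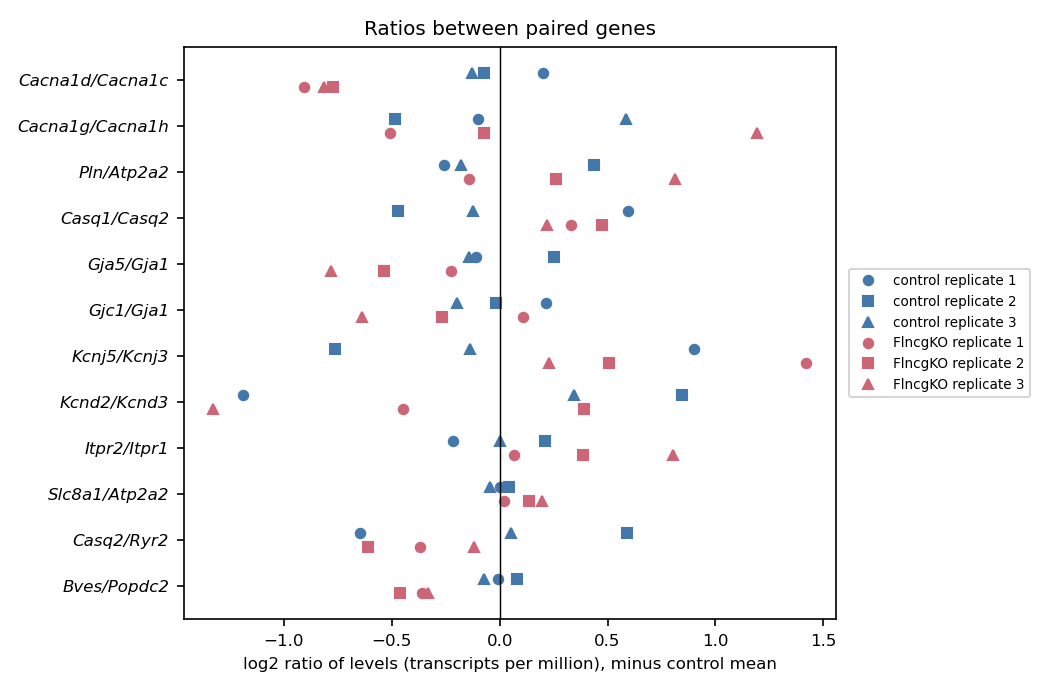
Ratios of TPM between paired genes in each library, on the log2 scale and relative to the control mean of the ratio. *Cacna1d* to *Cacna1c*, *Gja5* to *Gja1* and *Bves* to *Popdc2* are the 3 of 12 ratios whose control and FlncgKO libraries do not overlap. Each is lower in FlncgKO hearts at an exact permutation p of 0.1, the smallest possible, and none passes after adjustment over the 12 ratios (0.4). No share over other gene pairs was computed.

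The 6 pacemaker and sinus venosus markers summed to 164 to 205 CPM in controls and 93.3 to 143 CPM in FlncgKO hearts, without overlap. All 6 had negative log2 fold changes, none passed with edgeR and 1, the progenitor factor *Isl1*, was called lower by DESeq2 (log2 fold change -0.69, adjusted p = 0.0170). *Shox2*, a transcription factor of the sinus venosus, had 18.8, 20.4 and 15.6 CPM in the controls and 11.8, 9.84 and 0.730 CPM in FlncgKO hearts. *Vsnl1*, a calcium sensor of the sinus node, had 45.1, 39.7 and 45.1 CPM and 36.5, 29.4 and 9.80 CPM. FlncgKO replicate 3 was lowest in these markers and in *Hcn4*, *Cacna1d* and *Atp2a2*, but it was the highest FlncgKO library in *Isl1* (5.54, 4.81 and 6.62 CPM) and *Tbx3* (33.1, 38.7 and 42.7 CPM). Among the 7 atrial markers, 3 were lower with DESeq2 (*Nr2f1*, *Nr2f2* and *Stard10*) and none with edgeR. DESeq2 called 2.38% of all genes lower. *Nppa* of the same list was higher without overlap, at 291, 444 and 382 CPM in the controls and 507, 721 and 480 CPM in FlncgKO hearts, and did not pass (log2 fold change 0.61, edgeR adjusted p = 0.200), and the sum of the list overlapped between the groups. In whole-heart RNA, fewer cells of a type and less RNA per cell cannot be told apart, and the part of these markers in the fall of *Cacna1d* was not tested.

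**Figure D5:**
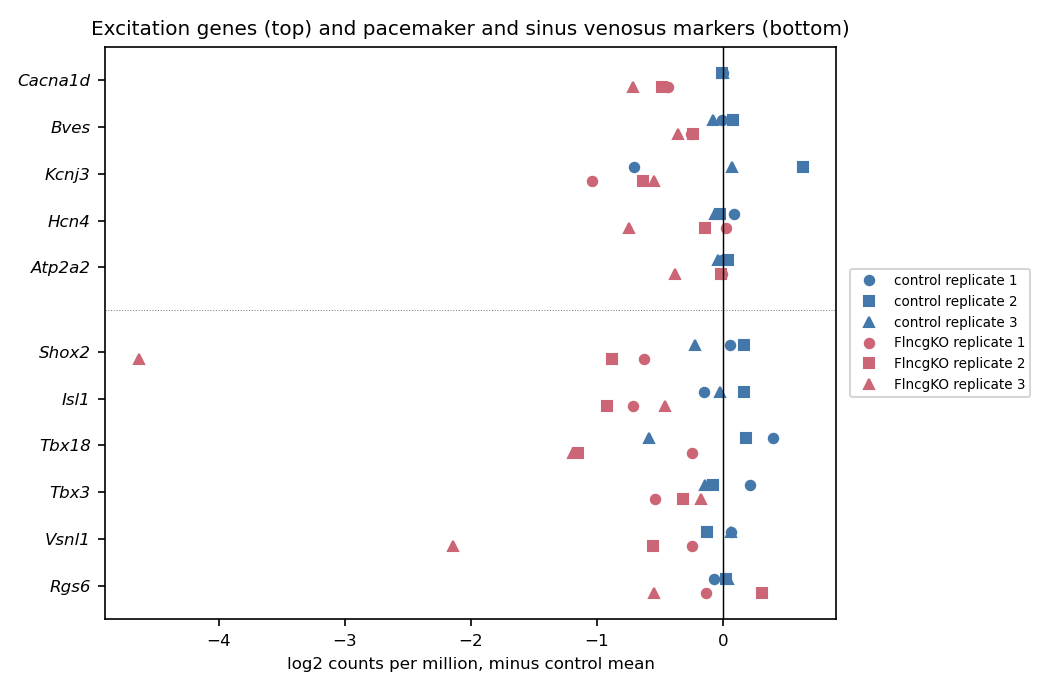
CPM of *Cacna1d*, *Bves*, *Kcnj3*, *Hcn4* and *Atp2a2* (top) and of 6 pacemaker and sinus venosus markers (bottom) in each library, on the log2 scale relative to the control mean. FlncgKO replicate 3 is lowest in *Cacna1d*, *Hcn4* and *Atp2a2* and lies far below the other libraries in *Shox2* (0.730 CPM) and *Vsnl1* (9.80 CPM).

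Beyond the 36, 96 other genes of the same families were listed, of which 80 were tested. With edgeR 1 was higher and none lower, beside 1.06% and 0.249% of all genes, and with DESeq2 8 were higher and 3 lower, beside 6.42% and 2.38%. The edgeR call was *Kcne3*, a potassium channel subunit, at 0.412, 0.386 and 0.386 CPM in the controls and 4.11, 9.09 and 2.24 CPM in FlncgKO hearts (log2 fold change 3.69, standard error 0.56, edgeR adjusted p = 0.0411). All FlncgKO libraries were above the controls, which held 9, 8 and 8 counts, so that the gene passed the filter through the FlncgKO libraries alone. It is not tested where 10 counts are asked of every library. The call was lost without any 1 control library or without FlncgKO replicate 1 (edgeR adjusted p = 0.0768 to 0.218), at log2 fold changes of 3.67 to 3.83. Those fits called 1 to 95 of all genes higher, against 170 with all libraries. The call was also lost with length offsets (edgeR adjusted p = 0.0926) and with the Y-linked covariate (edgeR adjusted p = 0.313), where 0 of all genes were called. DESeq2 kept it without any 1 library. *Atp2a3*, the SERCA3 pump of platelets and endothelium, had 3.38, 3.09 and 3.38 CPM in the controls and 73.6, 42.1 and 11.7 CPM in FlncgKO hearts (DESeq2 adjusted p = 1.40e-05, edgeR adjusted p = 0.0944). The potassium channel genes *Kcna3* and *Kcnk6* were also called higher by DESeq2 alone, at log2 fold changes of 2.84 and 1.57. The order of the FlncgKO libraries in *Atp2a3*, *Kcna3* and *Kcnk6*, highest in replicate 1 and lowest in replicate 3, was that of the 7 platelet and megakaryocyte markers, whose sum was 17.8 to 26.3 CPM in controls and 614, 381 and 97.0 CPM in FlncgKO hearts. Their part in these values was not tested.

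The other family genes below were called by DESeq2 alone. *Fkbp1b*, the FK506-binding protein that attaches to *Ryr2*, had 2.29, 2.08 and 2.71 CPM in the controls and 4.47, 4.46 and 4.69 CPM in FlncgKO hearts, a log2 fold change of 0.94 at the edge of the edgeR threshold (edgeR adjusted p = 0.0501, DESeq2 adjusted p = 0.00995). With 10 counts asked of every library it passed (edgeR adjusted p = 0.0402). *Stim1*, the store calcium sensor, had a log2 fold change of 0.40 (DESeq2 adjusted p = 0.0376), and the connexin gene *Gja6* one of 2.06 (DESeq2 adjusted p = 0.00240). The 3 lower genes were the kinase *Camk2a*, the calmodulin gene *Calm2* and the sodium channel family gene *Scn7a*, at log2 fold changes of -0.40, -0.21 and -0.58. *Calm2* is 1 of 3 genes for the same protein, and whether reads were shared among them was not tested.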

How the data were processed

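Poly(A) RNA of 3 control and 3 FlncgKO hearts at E9.5 was sequenced, and groups follow the sample labels. What the authors deposited are salmon tables of estimated counts (expected counts) and TPM, one row for each of 140658 transcripts of GENCODE M22 (GRCm38.p6). The salmon version is not given in the sources used here. Genes were assigned with GENCODE M21 on the same build, which left out 0.37% of transcripts with 0.108% to 0.131% of counts. Counts and TPM were added up within each gene, and the counts were rounded. Deposited effective lengths served only as offsets in 1 alternative.

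The test was edgeR 4.0.16 in R 4.3.3 (quasi-likelihood with robust dispersion, TMM scaling, low counts removed by filterByExpr at 10, Benjamini-Hochberg over 16048 genes, threshold 0.05, two-sided), checked on simulated data. DESeq2 1.42.0 was an alternative, as were RLE scaling, total counts, other filters, length offsets, a block for the replicate number, a Y-linked covariate and leaving out each library. DESeq2 without each library was added after seeing the data. DESeq2 gave no adjusted p for 638 genes, and its shares are over the other 15410. Ratios were compared by exact permutation over libraries in Python 3.11.15.

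The 36 genes, the 96 family genes, the markers and the tests were chosen with earlier results of these data known. By rule, values per library are given for genes past 0.05 in edgeR or DESeq2 or with an unadjusted edgeR p under 0.05, and for the highest and lowest of each group by control TPM, and family genes are named where they pass, except 1 that is not reported here. The windows before the *Cacna1d* starts come from a RefSeq table, and coding frames from GENCODE M21. *Hcn4*, *Atp2a2* and *Kcnj3* were put in the marker plot after their values were seen.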

Additional observations from a re-analysis of the deposited data

How the results depend on the processing

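With edgeR and all 6 libraries, 170 genes were higher and 40 lower, with 0 higher and 1 lower of the 36 and 1 higher and 0 lower family gene. RLE scaling and total counts kept these counts within 1.5 times, but with total counts the groups did not overlap for 8 and not 5 of the listed genes. With no filter on low counts 392 genes were higher and 162 lower, with 0 and 2 of the 36 and 2 and 2 family genes, and with 10 counts in every library 215 and 62, with 0 and 1 of the 36 and 1 and 0 family genes, the 1 being *Fkbp1b* in place of *Kcne3*. Length offsets gave 63 and 13 and the Y-linked covariate 0 and 0 (906 and 391 at an unadjusted p under 0.05), with 0 calls in both lists under either. DESeq2 gave 990 and 367, with 0 and 2 of the 36 and 8 and 3 family genes. Leaving out 1 library at a time gave 1 to 989 higher and 0 to 283 lower genes with edgeR, and 541 to 1303 and 128 to 553 with DESeq2. Of the 36, edgeR then called 0 to 2 higher and 0 to 1 lower and DESeq2 0 to 3 and 2 to 3, and of the family genes 0 to 7 and 0 to 2, and 5 to 9 and 1 to 5. The groups then did not overlap for 6 to 11 of the listed genes, and the leading transcript share for 4 to 8 and not 2, as fewer libraries overlap less. Beyond these constructions, the cause of the changes was not tested.

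The deviations from the group means correlated at 0.094, 0.574 and 0.620 between libraries of equal replicate number 1, 2 and 3. Between unequal numbers the correlations ran from -0.628 to 0.268, so replicates 2 and 3 were most alike across groups and replicate 1 was not. The labels do not say that equal numbers mark a litter, so the main test did not pair the libraries, and a pairing is not excluded. With a replicate block, 512 genes were higher and 120 lower, with 1 and 2 of the 36 (*Cacna1h* higher, *Cacna1d* and *Bves* lower) and 5 and 0 family genes.

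*Cacna1d* kept its negative sign in all 20 alternative fits, and *Bves* in all of them too. Of the 35 genes tested, 17 changed sign in at least 1 of these fits, none of them called in edgeR with all libraries, and *Bves*, *Cacna1c*, *Cacna1h*, *Asph*, *Kcnh2* and *Kcnj3* were the 6 called in at least 1 but not there. For *Cacna1g*, *Kcnj2*, *Kcnj3*, *Kcnd2* and *Kcnip2* the 95% interval reached beyond a 2-fold change.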
